A study of Homo sapiens with 16 samples.

Results

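Polyamine metabolism is described here through 10 genes: ODC1, AMD1, SRM and SMS of synthesis, SAT1, SMOX and PAOX of breakdown, and OAZ1, OAZ2 and AZIN1 of regulation. They were chosen by name from the 40888 genes in the authors' deposited normalized table. This choice was made with earlier results of these data known. Each name matched 1 gene identifier, and all 10 genes passed the low-count filter that left 22553 genes for testing.

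The series measured polyA RNA in VCaP, a human prostate cancer cell line that carries the androgen receptor and a fusion of TMPRSS2 with ERG. The design text asks how the lines called Vc and Ver differ. Vc cells had been kept in ethanol for 4 months and Ver cells in 1 µM enzalutamide, a drug that blocks the androgen receptor, for the same time. Before the experiment both lines were starved of steroids for 48 h or longer in medium without phenol red and with charcoal-stripped serum, so every group, the controls included, had been starved. For 24 h the cells then received control medium, 1 nM dihydrotestosterone (DHT, the most active natural androgen), 1 µM enzalutamide, or both compounds. This gives 8 groups of 2 libraries, 16 in all. Vc and Ver are each 1 line derived from 1 cell line. The labels do not say whether the 2 libraries of a group came from separate cultures, so the p-values measure only the spread between these libraries. The sample descriptions give lane code L008 to every Vc library and L002 to every Ver library. Lane and line cannot be told apart when Ver is compared with Vc, whereas each treatment comparison within a line stays within 1 lane code.

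Polyamines are small, positively charged molecules that bind nucleic acids and are needed for cell growth and translation. ODC1 makes putrescine from ornithine, AMD1 supplies the aminopropyl donor from S-adenosylmethionine, and SRM and SMS add aminopropyl groups to give spermidine and then spermine. SAT1 acetylates spermidine and spermine for export or for oxidation by PAOX, SMOX oxidizes spermine directly, antizymes inhibit ODC1 and antizyme inhibitor frees it. The prostate makes and secretes unusually large amounts of spermine.

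Promoter stretches of 3 members are shown. ODC1 and SRM were the only members with the 6-base E-box CACGTG in the RefSeq promoter windows. SAT1 was the member that responded most to DHT in Vc. The stretches are given 5′ to 3′ on the gene's strand in RefSeq's GRCh38.p14 sequence, with CACGTG in capitals. The ODC1 stretch, chr2:10447993-10448120 (minus strand), runs from 108 bases before to 20 bases after the more 3′ of 2 RefSeq starts, which lie 315 bases apart. Those of SRM, chr1:11060019-11060268 (minus strand), and SAT1, chrX:23782923-23783172 (plus strand), are the 250 bases before the start.
ODC1: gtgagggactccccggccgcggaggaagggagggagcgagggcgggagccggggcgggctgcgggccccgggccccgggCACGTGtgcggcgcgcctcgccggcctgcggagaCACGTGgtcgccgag
SRM: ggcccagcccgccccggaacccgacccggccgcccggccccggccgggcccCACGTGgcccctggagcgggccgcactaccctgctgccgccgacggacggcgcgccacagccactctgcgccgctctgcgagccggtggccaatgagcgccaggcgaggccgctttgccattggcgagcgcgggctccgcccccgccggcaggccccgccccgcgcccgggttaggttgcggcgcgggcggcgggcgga
SAT1: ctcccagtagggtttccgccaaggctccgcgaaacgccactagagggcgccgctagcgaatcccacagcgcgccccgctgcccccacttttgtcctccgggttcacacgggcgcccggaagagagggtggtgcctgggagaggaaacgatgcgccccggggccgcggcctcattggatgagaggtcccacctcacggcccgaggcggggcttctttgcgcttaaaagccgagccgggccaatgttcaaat

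RefSeq windows of 250 bases before to 50 after a start were found for 7 of the 10 members, 10 windows in all. Both strands were searched for CACGTG, the E-box bound by MYC and other factors, for AGAACA, a half-site of the androgen and glucocorticoid receptors, and for the full palindromic response element, which contains that half-site at each end. ODC1 held CACGTG at 29 bases before its second start and again at transcript position 6, and SRM held it 199 bases before its start. The window of the first ODC1 start held no CACGTG, and the ODC1 stretch shown lies downstream of that start. None of the member windows held AGAACA or the full element. Of all 35116 windows in the table, 7.26% held CACGTG, 14.8% AGAACA and 0.00285% the full element. These matches describe letters in a short window, not binding.

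Each library held between 8155244 and 13273523 counts in genes, and levels are given as TMM-scaled CPM (counts scaled to a common library size). The androgen marker FKBP5 followed the DHT label, at 63.9 ± 1.1 CPM in Vc controls against 1772 ± 16.4 after DHT. In Ver it had 71.5 ± 3.62 against 1778 ± 94.99 (mean ± SD, n = 2). These values check the DHT label only, not the enzalutamide label. All 8 prostate luminal and VCaP markers were detected, KLK3 lowest at 21.8 to 84.6 CPM of the library totals. Of the other cell types, 6 immune markers summed to 0.334 to 2.01 CPM. The 9 stromal and endothelial markers summed to 2.64 to 90.3 CPM, with LUM ranging from 0.301 to 86.3, COL1A1 from 0.972 to 2.71 and COL1A2 at 0 in 15 libraries. No marker of this list other than LUM exceeded 2.83 CPM in any library. The sum moved with the treatments, being 17.1 to 18.4 in untreated and 2.64 to 4.38 in DHT-treated Vc cells. It was 56.3 to 64.3 and 3.59 to 4.17 in the same Ver groups, and 83.0 to 90.3 in Ver cells given enzalutamide. The share of counted reads in no gene also moved, being 50.1 and 50.6% in untreated and 47.1 and 46.9% in DHT-treated Vc libraries, and 49.0 and 48.7%, and 45.3 and 45.6%, in Ver. Their part in the results below was not tested.

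In untreated cells SMS, AMD1 and OAZ1 stood highest per kilobase of annotated exon in both lines. The length used is that of all annotated exons of a gene, not of the transcripts expressed. The order between genes therefore depends on the annotation. In Vc, the level per kilobase was 88.0 ± 3.53 for SMS, 78.7 ± 0.175 for AMD1 and 62.2 ± 3.39 for OAZ1 (CPM per kilobase, mean ± SD, n = 2). SRM at 42.3 ± 1.5 and SAT1 at 42.1 ± 0.0925 could not be ranked beyond their spread, and AZIN1 followed at 35.5 ± 2.92. ODC1, often described as rate-limiting for the pathway, had 23.9 ± 0.245, OAZ2 12.7 ± 0.0238, SMOX 3.69 ± 0.334 and PAOX 0.912 ± 0.288. In Ver, AMD1 at 76.3 ± 0.593, OAZ1 at 75.0 ± 0.927 and SMS at 73.4 ± 2.94 were close together at the top, and SAT1 at 55.0 ± 0.0315 and AZIN1 at 46.1 ± 2.72 stood above SRM at 37.9 ± 3.21. The lowest 4 genes and their order were the same in both lines.

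**Figure D1:**
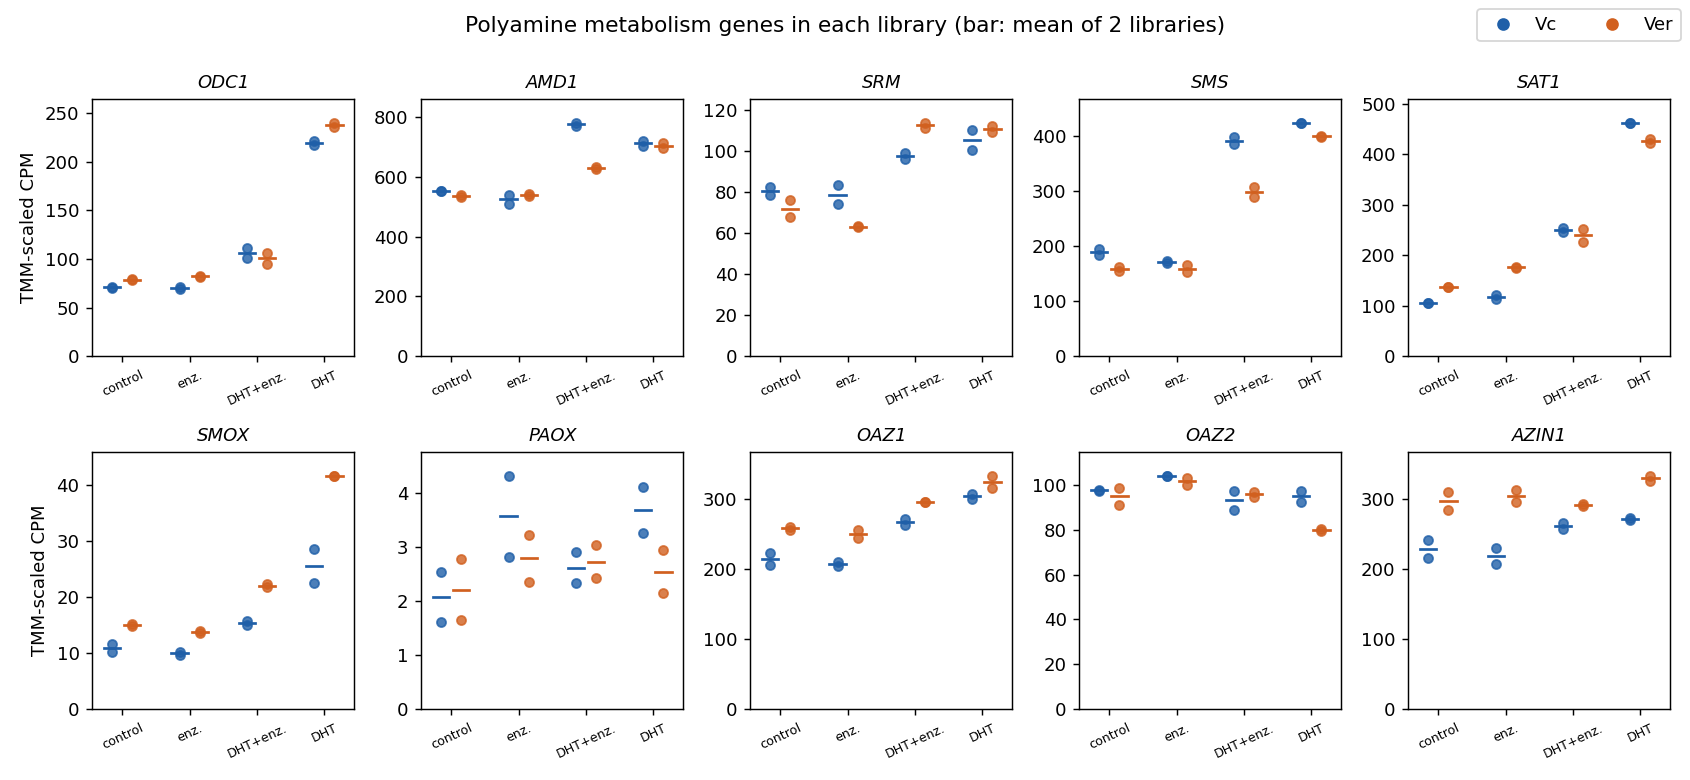
TMM-scaled CPM (y axis, from 0) of the 10 genes in each of the 16 libraries, by treatment (x axis; enz. is enzalutamide), with Vc in blue and Ver in orange; points are libraries and bars are the means of 2 libraries. ODC1, SMS, SAT1 and SMOX are highest in both DHT libraries of each line, whereas OAZ2 stays between 79.5 and 104 CPM.

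DHT raised polyamine genes on both the synthesis and the breakdown side. In Vc, 8 of 10 genes rose and none fell, by edgeR's quasi-likelihood test at a Benjamini-Hochberg adjusted p under 0.05, while 44.3% of all tested genes were called, 21.8% higher and 22.5% lower. In Ver, 8 rose and 1, OAZ2, fell, against 44.1% of all genes called, 21.2% higher and 22.9% lower. The median log2 change of the 10 genes was 0.66 in Vc and 0.51 in Ver, and that of all tested genes was -0.04 in each line. Because the members were chosen with earlier results known, these counts and medians are given only as a description. The rises were largest for SAT1, ODC1, SMOX and SMS, between 2.24-fold and 4.4-fold, and modest for OAZ1, SRM, AMD1 and AZIN1, between 1.11-fold and 1.54-fold. In bulk RNA, a change in the share of a cell type and a change in RNA per cell cannot be told apart. With scaling by library totals alone the median of all genes moved by -0.17 in Vc and -0.19 in Ver, and the share of called genes that were higher fell from 49.2 to 34.4% and from 48.0 to 32.0%. With that scaling ODC1, SAT1, SMS, SMOX, SRM, AMD1 and OAZ1 still rose in both lines, but AZIN1 was called in neither.

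ODC1 (ENSG00000115758, chr2:10439968-10448504 in GRCh38) had 71.4 and 70.4 CPM in the 2 untreated Vc libraries and 222 and 218 with DHT. The corresponding values in Ver were 79.0 and 77.9, and 240 and 236. All 4 DHT libraries lay far above all 4 controls. This amounts to a log2 change of 1.63 ± 0.06 in Vc (± SE here and below, adjusted p = 3.53e-53) and of 1.60 ± 0.06 in Ver (adjusted p = 3.34e-52). These responses differed by -0.03 (95% interval -0.24 to 0.18, adjusted p = 0.944), so a difference beyond that interval was not seen.

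AMD1 (ENSG00000123505, chr6:110874770-110895713), the decarboxylase that makes the aminopropyl donor, had the highest CPM of the 10 genes in every library. Untreated Vc cells had 554 and 552 CPM of it and DHT-treated ones 721 and 705, and the Ver values were 539 and 533, and 695 and 714. The DHT libraries were all higher than the controls, with a log2 change of 0.37 ± 0.05 (adjusted p = 1.73e-11) in Vc and 0.39 ± 0.05 (adjusted p = 9.73e-13) in Ver. With library totals alone these fell to 0.19 and 0.20 and were still called. SRM (ENSG00000116649, chr1:11054584-11060024), spermidine synthase, went from 78.3 and 82.3 CPM to 110 and 100.5 in Vc, with 67.6 and 76.2 turning into 112 and 109 in Ver. Control and DHT libraries did not overlap in either line. Its log2 change was 0.40 ± 0.07 (adjusted p = 4.08e-07) in Vc, or 0.22 with library totals alone, and 0.62 ± 0.07 (adjusted p = 6.59e-14) in Ver.

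Spermine synthase, SMS (ENSG00000102172, chrX:21940573-21994835), carried the largest rise of synthesis after ODC1. It had 196 and 185 CPM in untreated Vc cells and 425 in each DHT library. In Ver it had 163 and 154 without and 401 and 400 with DHT. Both lines thus showed a gap between control and DHT many times the spread within a pair. Vc changed by 1.16 ± 0.05 log2 (adjusted p = 1.52e-45) and Ver by 1.33 ± 0.05 (adjusted p = 3.14e-51).

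Of the breakdown genes, SAT1 (ENSG00000130066, chrX:23783173-23786226), the spermidine and spermine acetyltransferase, had the largest DHT response of the 10 genes in Vc. In Ver its response could not be ranked above that of ODC1 (1.60 ± 0.06 log2) beyond their errors. The level of SAT1 was 105 and 105 CPM in untreated Vc cells and 463 and 463 with DHT. Untreated Ver cells had 137 and 137, and DHT brought them to 422 and 431. Ver libraries therefore lay above those of Vc without treatment and below them with DHT, with no overlap at either end. The untreated difference was called (0.39 ± 0.06 log2, adjusted p = 2.98e-08), but that with DHT was not (-0.12 ± 0.05, adjusted p = 0.115). Lane code and line cannot be told apart in these 2 differences. SAT1 rose by 2.14 ± 0.06 log2 in Vc (adjusted p = 3.69e-74) and by 1.63 ± 0.06 in Ver (adjusted p = 1.51e-60).

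SMOX (ENSG00000088826, chr20:4120980-4187747), spermine oxidase, was a low-level gene with 10.2 and 11.6 CPM in untreated Vc cells and 22.6 and 28.7 with DHT. In Ver it went from 15.1 and 14.8 to 41.6 and 41.7. The rise exceeded the spread in both lines, by a log2 change of 1.23 ± 0.15 (adjusted p = 1.85e-13) in Vc and 1.47 ± 0.14 (adjusted p = 3.58e-19) in Ver. PAOX (ENSG00000148832, chr10:133379234-133391694), which oxidizes acetylated polyamines, was barely expressed, with 17 to 50 counts per library. Untreated Vc libraries had 2.54 and 1.61 CPM and those given DHT 4.11 and 3.25, against 1.65 and 2.77, and 2.14 and 2.95, in Ver. Libraries of the groups overlapped in Ver. No change passed the test in either line, with a log2 difference of 0.82 ± 0.36 (adjusted p = 0.0528) in Vc and 0.19 ± 0.38 (adjusted p = 0.729) in Ver. The Vc value moved just past the threshold under size factors of the DESeq2 type (adjusted p = 0.0495), with only its own groups in the fit (adjusted p = 0.0495) and without Vc control replicate 1 (1.19, adjusted p = 0.0354). In Ver the value turned to -0.12 when control replicate 1 was left out and to -0.05 when DHT replicate 2 was.

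Among the regulators, antizyme 1 rose and antizyme 2 did not. OAZ1 (ENSG00000104904, chr19:2269509-2273490) went from 222 and 206 to 300 and 307 CPM in Vc, and from 255 and 260 to 333 and 316 in Ver. DHT and control libraries did not overlap, and the rise was 0.50 ± 0.05 log2 in Vc (adjusted p = 1.01e-15) and 0.33 ± 0.05 (adjusted p = 2.87e-08) in Ver. With library totals alone the OAZ1 values were 0.33 and 0.14, both still called. OAZ2 (ENSG00000180304, chr15:64687573-64703281) had 97.7 and 97.5 CPM in untreated and 97.4 and 92.4 in DHT-treated Vc cells, and 98.8 and 90.9, and 79.5 and 80.6, in Ver. It was lowest in the 2 Ver libraries with DHT. The log2 difference was -0.04 ± 0.07 (adjusted p = 0.687) in Vc and -0.25 ± 0.07 (adjusted p = 0.00192) in Ver. The Ver call was lost without Ver control replicate 1 (-0.17, adjusted p = 0.102), whereas library totals alone gave -0.21 (adjusted p = 0.00611) in Vc and -0.43 in Ver.

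AZIN1 (ENSG00000155096, chr8:102826357-102893864), the antizyme inhibitor, had 241 and 215 CPM in untreated and 272 and 270 in DHT-treated Vc cells, and 309 and 284, and 326 and 333, in Ver. Its log2 change of 0.25 ± 0.05 (adjusted p = 4.69e-05) in Vc and 0.15 ± 0.05 (adjusted p = 0.0157) in Ver was the smallest rise that passed the test. The Vc call was lost with library totals alone (0.08, adjusted p = 0.252). The Ver value was -0.04 (adjusted p = 0.607) with library totals alone, 0.10 (adjusted p = 0.29) when Ver control replicate 2 was left out and 0.14 (adjusted p = 0.0909) when Ver DHT replicate 2 was, and upper-quartile scaling gave 0.12 (adjusted p = 0.0534). Other genes that overlap a member or are named as its pseudogene copy held at most 2.16% of its counts, a share reached by AZIN1-AS1. In unstranded union counting, a read on exon bases shared with an overlapping gene of either strand is ambiguous, and ambiguous reads were left out. How many reads each member lost in this way is not known.

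Enzalutamide alone left most of the 10 genes near control. In Vc none was called by edgeR or by DESeq2, while 3 (SMS, SAT1 and PAOX) had an unadjusted p under 0.05 and 0.537% of all tested genes were called. The lowest log2 difference was -0.15 for SMS and the highest 0.77 for PAOX, which ranged from 0.43 to 1.14 with 1 library left out (0.43 without enzalutamide replicate 2, 0.48 without control replicate 2 and 1.14 without control replicate 1). In Ver 1 gene, SAT1, was higher by both tools, against 1.13% of all genes. SAT1 had 137 and 137 CPM in control and 175 and 177 with enzalutamide in Ver, and 105 and 105, and 122 and 113, in Vc. The enzalutamide libraries were above the controls in both lines. The log2 difference was 0.36 ± 0.06 (adjusted p = 5.45e-06) in Ver and 0.16 ± 0.06 (adjusted p = 0.315) in Vc. The test of the difference between the lines gave 0.20 (95% interval 0.005 to 0.39, adjusted p = 0.763), and no member was called for it by edgeR or DESeq2, with 1 (SAT1) at an unadjusted p under 0.05 and 0.0222% of all genes called.

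With both compounds, the polyamine genes split by how far enzalutamide took them back towards control. Compared with DHT alone in Vc, ODC1, SAT1, SMOX and OAZ1 were lower and none was higher, 4 of 10 against 22.4% of all tested genes called and 11% lower. DESeq2 called 6, adding SMS as lower and AMD1 as higher. In Ver 7 were lower (ODC1, AMD1, SMS, SAT1, SMOX, OAZ1 and AZIN1) and 1, OAZ2, was higher, against 26.9% of all genes called, 13.2% lower and 13.7% higher. This Ver count was 5 with library totals alone, which lost AMD1, OAZ1 and AZIN1. Against untreated cells, 8 genes were still higher with both compounds in Vc (28.5% of all genes called, 15.3% higher and 13.2% lower) and 7 in Ver (22.7%, 12.4% higher and 10.3% lower). Leaving out any 1 library took the Vc count to 7. AZIN1 in Vc (0.20 ± 0.05) lost its call with library totals alone (0.09, adjusted p = 0.218), without Vc control replicate 2 (0.12, adjusted p = 0.229) and without Vc replicate 1 with both compounds (0.17, adjusted p = 0.0658). OAZ1 in Ver (0.20 ± 0.05) lost it with library totals alone (0.10, adjusted p = 0.178). Because these comparisons share libraries, each gene's own levels are given side by side.

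ODC1 kept the smallest percentage of its DHT log2 change among the 4 genes with the largest rises. With both compounds it had 101 and 112 CPM in Vc and 95.3 and 106 in Ver, less than the DHT libraries and more than every control library. Enzalutamide on top of DHT changed it by -1.04 ± 0.06 log2 (adjusted p = 2.78e-33) in Vc and by -1.24 ± 0.06 (adjusted p = 5.6e-40) in Ver. Compared with control it stayed 0.59 ± 0.07 higher in Vc and 0.36 ± 0.07 (adjusted p = 7.48e-06) higher in Ver, which is 36.0 and 22.4% of its DHT log2 change. SMOX behaved much the same, with 14.9 and 15.7 CPM in Vc and 21.8 and 22.3 in Ver. It was -0.74 ± 0.14 log2 (adjusted p = 6.69e-06) and -0.92 ± 0.13 (adjusted p = 2.19e-09) against DHT alone, and kept 40.2 and 37.8% of its DHT log2 change. Against control, SMOX was higher by 0.50 ± 0.15 in Vc (adjusted p = 0.00637), a call lost without Vc control replicate 1 (0.41, adjusted p = 0.114) or Vc replicate 2 with both compounds (0.46, adjusted p = 0.0565), and by 0.56 ± 0.15 in Ver (adjusted p = 0.00152).

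SAT1 lay between its control and DHT levels. It had 246 and 253 CPM with both compounds in Vc and 226 and 252 in Ver, and in neither line did these libraries overlap those of control or DHT. Enzalutamide on top of DHT changed it by -0.89 ± 0.05 log2 (adjusted p = 3.68e-33) in Vc and -0.83 ± 0.05 (adjusted p = 2.75e-30) in Ver, and it kept 58.3 and 48.9% of the DHT log2 change.

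SMS gave a different picture in each line. With both compounds it had 398 and 386 CPM in Vc, close to the 425 of DHT alone, but 290 and 308 in Ver, well under the 401 and 400 of DHT alone. The log2 difference from DHT alone was -0.12 ± 0.05 (adjusted p = 0.0975) in Vc, which DESeq2 called (-0.14, adjusted p = 0.0373), as did edgeR with only the groups of the contrast (adjusted p = 0.0211) or with size factors of the DESeq2 type (-0.14, adjusted p = 0.0421). In Ver it was -0.42 ± 0.05 (adjusted p = 1.04e-11). SMS kept 89.9% of its DHT log2 change in Vc and 68.4% in Ver.

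AMD1 was higher with both compounds (769 and 782 CPM) than with DHT alone (721 and 705) in both Vc libraries, and lower (632 and 625 against 695 and 714) in both Ver libraries. The Vc difference of 0.12 ± 0.05 did not pass the test (adjusted p = 0.0538). It did with library totals alone (0.19, adjusted p = 9.02e-04), with only the groups of the contrast (adjusted p = 0.00731) and in DESeq2 (0.10, adjusted p = 0.0304). The Ver difference of -0.16 ± 0.05 passed (adjusted p = 0.00437), but not with library totals alone (-0.07, adjusted p = 0.3) or without Ver DHT replicate 2 (-0.14, adjusted p = 0.0719). SRM had 96.2 and 98.8 CPM with both compounds in Vc and 111 and 114 in Ver. Its log2 difference from DHT alone was -0.12 ± 0.07 (adjusted p = 0.257) in Vc and 0.02 ± 0.07 (adjusted p = 0.858) in Ver, and it was above control by 0.28 ± 0.07 and 0.64 ± 0.07.

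Changes in the regulators were small. OAZ1 had 263 and 271 CPM with both compounds in Vc and 296 and 295 in Ver, between control and DHT in each line. Its differences from DHT alone, -0.19 ± 0.05 (adjusted p = 0.00444) in Vc and -0.14 ± 0.05 (adjusted p = 0.044) in Ver, were lost with library totals alone (-0.12, adjusted p = 0.104; -0.04, adjusted p = 0.622). Leaving out Vc DHT replicate 2 or Vc replicate 1 with both compounds also lost the first (adjusted p = 0.0744 and 0.0821), and leaving out Ver DHT replicate 1 or either Ver library with both compounds lost the second (adjusted p = 0.336, 0.151 and 0.161), as did no low-count filter (0.135) and only the groups of the contrast (0.0706). AZIN1 in Ver, at 293 and 290 CPM, differed by -0.18 ± 0.05 log2 from DHT alone (adjusted p = 0.00815) and by -0.02 from control. That call was lost with library totals alone (-0.08, adjusted p = 0.287), without Ver replicate 2 with both compounds (-0.17, adjusted p = 0.0641) and without Ver DHT replicate 2 (-0.16, adjusted p = 0.0791). OAZ2 in Ver, at 97.0 and 94.5 CPM, was 0.26 ± 0.07 above DHT alone (adjusted p = 0.00194).

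**Figure D2:**
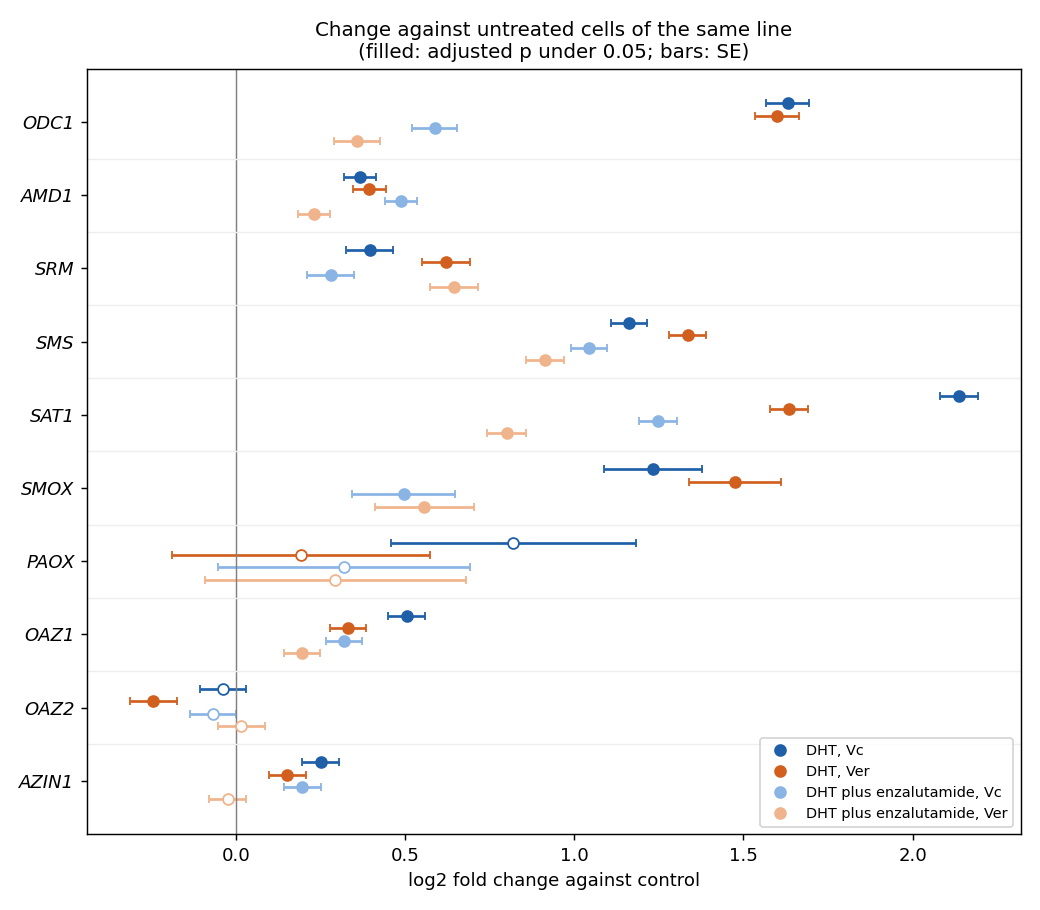
Log2 fold change against untreated cells of the same line (x axis) for each of the 10 genes (y axis), with DHT (dark blue Vc, dark orange Ver) or with DHT plus enzalutamide (light blue Vc, light orange Ver); bars are SE and filled points passed an adjusted p under 0.05. ODC1 falls from 1.63 to 0.59 in Vc when enzalutamide is added, whereas SMS moves only from 1.16 to 1.04.

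Tests of the difference between the lines picked out 1 gene for the DHT response and 2 for the effect of enzalutamide on top of DHT. For DHT, SAT1 was the member called, with a log2 response smaller in Ver by 0.50 (difference -0.50 ± 0.08, 95% interval -0.69 to -0.32, adjusted p = 8.91e-07), against 2.32% of all tested genes called, 0.891% higher and 1.43% lower. It kept its call in every alternative run, from -0.52 to -0.49 with adjusted p from 2.39e-07 to 5.11e-05. The other 9 differences in DHT response did not pass, although SRM, SMS, OAZ1 and OAZ2 had an unadjusted p under 0.05, as did SAT1, 5 members in all. Beside ODC1, given above, they were 0.03 for AMD1 (95% interval -0.13 to 0.18), 0.22 for SRM (-0.005 to 0.46), 0.17 for SMS (-0.001 to 0.35), 0.24 for SMOX (-0.22 to 0.70), -0.63 for PAOX (-1.84 to 0.59), -0.17 for OAZ1 (-0.35 to 0.001), -0.21 for OAZ2 (-0.43 to 0.02) and -0.10 for AZIN1 (-0.28 to 0.08). These intervals use fewer degrees of freedom than the test, so they can span no change where the unadjusted p is under 0.05. The SMOX difference was 0.07 without Vc DHT replicate 1, 0.15 without Vc control replicate 2 and 0.42 without Vc DHT replicate 2. For enzalutamide on top of DHT, AMD1 (-0.28 ± 0.07, adjusted p = 0.00797) and SMS (-0.31 ± 0.07, adjusted p = 0.0104) were more strongly lowered in Ver than in Vc, where AMD1 itself was not lowered. These are 2 of 10 genes, against 1.29% of all genes called, 0.652% lower. The count was 0 without Vc DHT replicate 2 (adjusted p = 0.0816 for AMD1 and 0.0637 for SMS). AMD1 also lost its call without Vc replicate 2 with both compounds (0.0574) or Ver DHT replicate 2 (0.08), and SMS without Vc replicate 1 with both compounds (0.133), Vc DHT replicate 1 (0.075) or Ver replicate 1 with both compounds (0.183). ODC1 (-0.20, 95% interval -0.40 to 0.01, adjusted p = 0.34) and OAZ2 (0.29, 0.06 to 0.52, adjusted p = 0.132) did not pass.

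Compared directly, SMOX and AZIN1 mRNA were called higher in Ver than in Vc cells under all 4 treatments. Some of these calls were lost with 1 library left out, as given below. OAZ1 was also higher under each treatment, but its difference with DHT did not pass the test. Without treatment 4 genes were higher and 1 lower in Ver, 5 of 10 against 18.9% of all tested genes, 9.13% higher and 9.73% lower. With DHT 2 were higher and 1 lower, against 17.3% of all genes, 7.9% higher and 9.37% lower. The numbers were 5 and 1 with enzalutamide (16.6%, 7.88% higher and 8.69% lower) and 4 and 2 with both compounds (20.3%, 9.28% higher and 11% lower). Lane code and line cannot be told apart in any of these counts. With 1 library left out, the enzalutamide count of 6 was 3 or 4, being 3 without Vc enzalutamide replicate 2, and the count of 6 with both compounds was 3 whichever of its 4 libraries was left out.

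SMOX was 0.47 ± 0.15 log2 higher in Ver without treatment (adjusted p = 0.0192), 0.71 ± 0.13 with DHT (adjusted p = 3.9e-06), 0.46 ± 0.16 with enzalutamide (adjusted p = 0.0308) and 0.53 ± 0.14 with both (adjusted p = 0.00288). Under each treatment both Ver libraries exceeded both Vc libraries. The untreated call was lost without Vc control replicate 1 (0.38, adjusted p = 0.214) or either Ver control library (adjusted p = 0.0949 and 0.0743). The enzalutamide call was lost without any 1 of its 4 libraries (adjusted p = 0.092 to 0.183), in DESeq2 (adjusted p = 0.0662) and with no low-count filter (adjusted p = 0.0511).

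AZIN1 was higher in Ver by 0.38 ± 0.05 untreated (adjusted p = 6.28e-09), 0.28 ± 0.05 with DHT (adjusted p = 1.98e-05) and 0.48 ± 0.06 with enzalutamide (adjusted p = 6.96e-13). With both compounds its difference was 0.16 ± 0.05 (adjusted p = 0.0262), lost without any 1 of the 4 libraries (adjusted p = 0.062 to 0.197), in DESeq2 (0.0513) and with no low-count filter (0.0618). All 8 Ver libraries, at 284 to 333 CPM, lay above all 8 Vc libraries, at 206 to 272. OAZ1 was higher by 0.27 ± 0.05 untreated (adjusted p = 2.85e-05) and 0.27 ± 0.05 with enzalutamide (adjusted p = 4.37e-05). With DHT OAZ1 was 0.10 ± 0.05 higher, which did not pass (adjusted p = 0.224). With both compounds it was 0.15 ± 0.05 higher (adjusted p = 0.0364), which was lost without any 1 of the 4 libraries (adjusted p = 0.078 to 0.235) and with no low-count filter (0.0992).

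SAT1 was higher in Ver without androgen, by 0.39 ± 0.06 untreated (adjusted p = 2.98e-08) and 0.58 ± 0.06 with enzalutamide (adjusted p = 3e-16), whereas with DHT its difference was -0.12 ± 0.05 (adjusted p = 0.115). SMS was lower in Ver, by a log2 difference of -0.26 ± 0.06 untreated (adjusted p = 9.19e-05) and -0.39 ± 0.05 with both compounds (adjusted p = 3.54e-10). AMD1 was lower with both compounds (-0.30 ± 0.05, adjusted p = 8.74e-08). ODC1 was 0.15 ± 0.07 higher untreated (adjusted p = 0.134, or 0.18 and 0.0486 with library totals alone) and 0.12 ± 0.06 with DHT, neither past the threshold. With enzalutamide it was 0.22 ± 0.07 higher (adjusted p = 0.0175), which was lost without any 1 of the 4 libraries (adjusted p = 0.0574 to 0.142).

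SRM was lower in Ver with enzalutamide (-0.31 ± 0.07, adjusted p = 6.36e-04) and higher with both compounds (0.21 ± 0.07, adjusted p = 0.0208). The first call was lost without Vc enzalutamide replicate 2 (-0.23, adjusted p = 0.106), and the second without any 1 of its 4 libraries (adjusted p = 0.0634 to 0.155) and in DESeq2 (0.0632). OAZ2 was lower in Ver with DHT (-0.25 ± 0.07, adjusted p = 0.00496), a call lost without Vc DHT replicate 1 (-0.21, adjusted p = 0.126) or Ver DHT replicate 1 (-0.24, adjusted p = 0.0526).

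**Figure D3:**
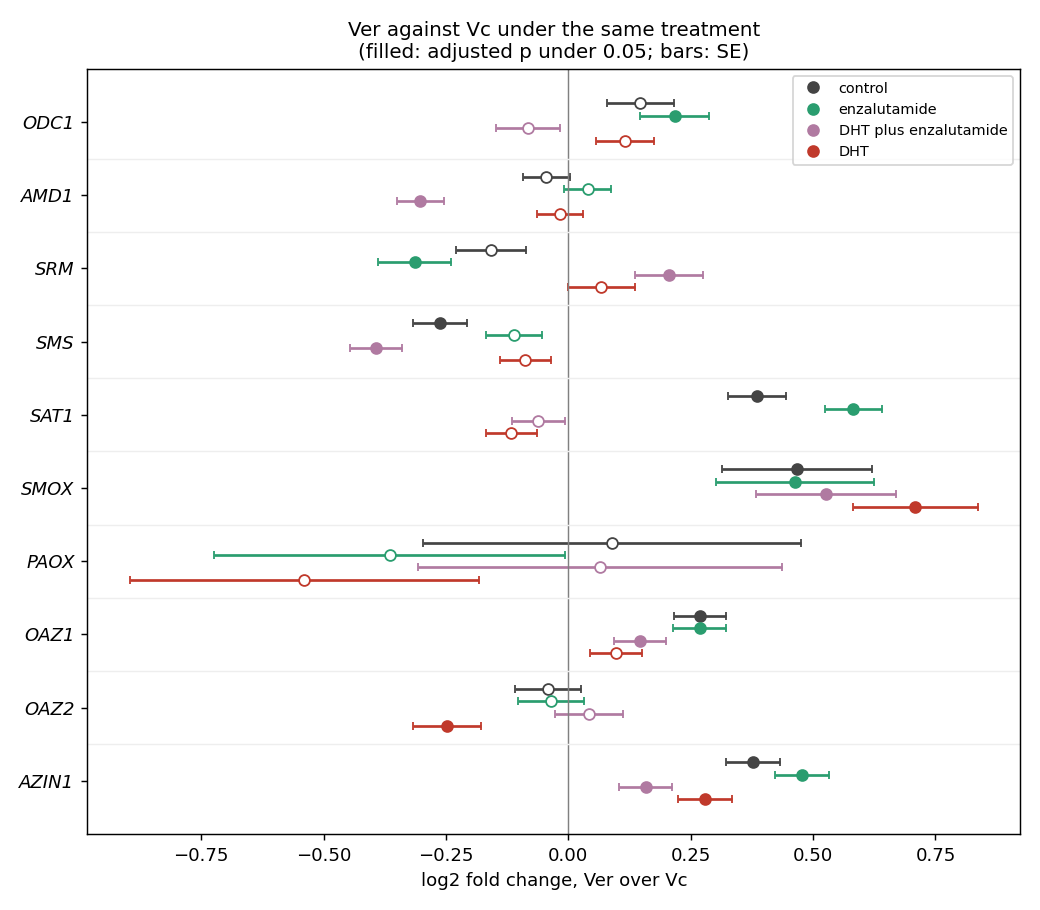
Log2 fold change of Ver over Vc (x axis) for each of the 10 genes (y axis) under the same treatment: control (black), enzalutamide (green), DHT plus enzalutamide (purple) and DHT (red); bars are SE and filled points passed an adjusted p under 0.05. SMOX, AZIN1 and OAZ1 lie to the right of 0 under all 4 treatments, OAZ1 with an open point for DHT. SAT1 does so only in control and with enzalutamide, at 0.39 and 0.58.

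Genes of the wider pathway moved in both directions with DHT. Of 33 other genes of supply, salvage, hypusination, transport and regulation, 31 were tested. With DHT in Vc 8 were higher and 9 lower with a median log2 change of -0.05, where 44.3% of all tested genes were called, 21.8% higher and 22.5% lower. In Ver 7 were higher and 13 lower with a median of -0.15, where 44.1% were called, 21.2% higher and 22.9% lower. The smaller lists below hold 3 to 9 tested genes each, and their counts stand against these same shares. SATL1 and ATP13A4 had 5 and 15 counts over all libraries and were not tested.

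In ornithine and arginine supply, 2 of 9 genes rose and 1 fell in Vc, and 2 rose and 2 fell in Ver, against 44.3% and 44.1% of all genes called. SLC7A1, the cationic amino acid carrier that takes up arginine and ornithine, went from 163 ± 4.78 to 344 ± 4.13 CPM in Vc (mean ± SD, n = 2; log2 change 1.08 in Vc and 0.84 in Ver). ARG2, the mitochondrial arginase that makes ornithine, fell from 20.9 ± 1.62 to 8.12 ± 0.130 CPM in Vc (log2 change -1.36, and -1.46 in Ver). Hence the carrier and the arginase moved in opposite directions in both lines.

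In S-adenosylmethionine supply and methionine salvage, 3 of 8 genes rose and 2 fell in Vc (44.3% of all genes called), and 2 rose and 3 fell in Ver (44.1%). MTAP, which recycles the methylthioadenosine that SRM and SMS release, fell from 52.9 ± 0.422 CPM to 27.2 ± 1.27 in Vc, and Ver went from 53.4 ± 1.01 to 24.8 ± 3.10 (log2 change -0.96 and -1.10). MAT1A, a liver-type methionine adenosyltransferase at 4.22 ± 0.449 CPM in untreated Vc cells, changed by -2.52 and -2.27. MAT2A, the form most other tissues use, had a DHT response that differed by 0.37 log2, Ver minus Vc. The sign alone does not tell a larger rise from a smaller fall in Ver. For this difference 1 of the 8 genes was called, against 2.32% of all tested genes.

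Hypusination attaches a piece of spermidine to the translation factor eIF5A. With DHT 1 of its 4 genes rose and 2 fell in each line, where 44.3% and 44.1% of all genes were called. DOHH, the hydroxylase of the last step, changed by 0.87 in Vc and 0.71 in Ver, and EIF5A by -0.48 and -0.18. The EIF5A call in Ver was lost in DESeq2 (-0.17, adjusted p = 0.116), with only its own groups (-0.17, adjusted p = 0.0602), and without Ver control replicate 2 (-0.11, adjusted p = 0.351) or Ver DHT replicate 1 (-0.09, adjusted p = 0.447). The value was -0.28 without Ver DHT replicate 2 and -0.37 with library totals alone.

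Among transport genes, 2 of 7 rose and 3 fell in Vc, and 2 rose and 5 fell in Ver, beside 44.3% and 44.1% of all genes. SLC3A2, the heavy chain of several amino acid exchangers, changed by 1.32 and 1.18 log2. SLC22A3, an organic cation carrier, went from 24.0 ± 2.38 to 76.0 ± 2.72 CPM in Vc but from 26.2 ± 1.63 to 43.4 ± 1.97 in Ver (log2 change 1.66 and 0.73), and this response was smaller in Ver by test (difference -0.93). Responses of SLC12A8 (-0.56) and GPC1 (-0.59) were also lower in Ver, but both calls were lost in DESeq2 (adjusted p = 0.148 and 0.0671) and in 5 leave-one-out fits each. For this difference 3 of 7 transport genes were thus called, all lower, against 2.32% of all tested genes, 1.43% lower. SLC18B1, the vesicular polyamine transporter, is named after its values were seen: it had 46 and 50 counts in the untreated Vc libraries and 2 and 2 with DHT, and 56 and 96, and 12 and 5, in Ver. Of the other regulators, AZIN2, a second antizyme inhibitor, fell in both lines (-0.99 and -1.14), and OAZ3, another antizyme, changed by 0.21 and 0.36 without passing the test.

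**Figure D4:**
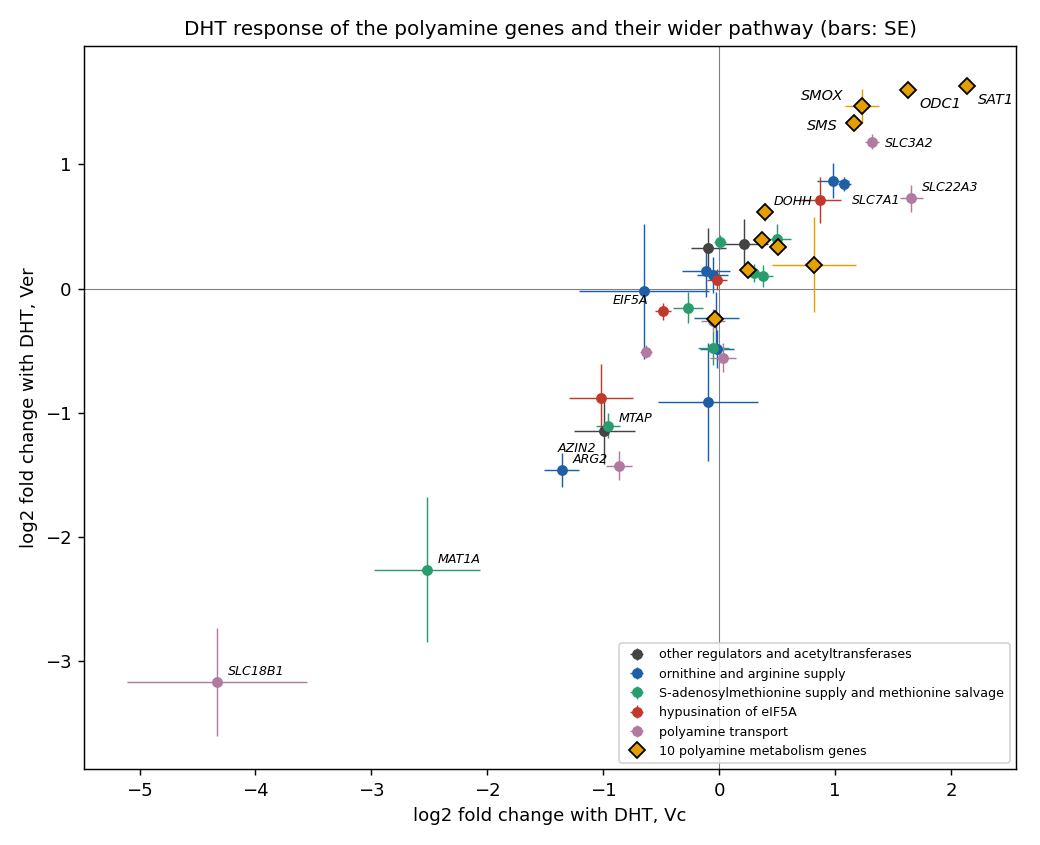
Log2 fold change with DHT in Vc (x axis) against that in Ver (y axis) for the 10 polyamine genes (orange diamonds) and 31 other pathway genes (circles, by list); bars are SE. SAT1, ODC1, SMOX and SMS lie at the upper right, and MTAP, ARG2 and MAT1A at the lower left, where both values are negative.

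For the 4 members whose group means spanned more than 1 log2 unit, the genes with the most similar pattern were sought by Pearson's r over the 8 group means of log2(CPM + 2), among 12427 other genes averaging 5 CPM or more. The 8 means share the same 4 treatments in both lines, and r is given only as a description. ODC1 was most like CDS1 (0.9975), DCAF11 (0.9942) and CXADR (0.9935). SAT1 was most like COX7A2L (0.9937), TMCC1 (0.9931) and RTCB (0.9929). SMS was closest to DSC2 (0.9965), MRPS10 (0.9962) and UAP1 (0.9961), and SMOX to ZBTB7B (0.9969), ASB8 (0.9952) and PYROXD1 (0.995). No member appeared among the 3 nearest genes of another. With 3 places among 12427 genes, this does not show that the members moved apart. Between these 4 members r ran from 0.752 (SMS with SMOX) to 0.956 (ODC1 with SAT1).

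MYC, a factor that binds CACGTG, is given because ODC1 and SRM held that sequence. DHT lowered it from 378 ± 8.49 CPM to 52.7 ± 2.01 in Vc, and Ver went from 319 ± 5.56 to 41.7 ± 1.97 (mean ± SD, n = 2; log2 change -2.84 in Vc). Over the same libraries ODC1 and SRM rose, as given above. No binding was measured, and whether MYC had a part in these changes was not tested.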

How the data were processed

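PolyA RNA of 16 VCaP libraries was extracted with TRIzol and prepared with the VAHTS mRNA-seq V3 kit, per the labels' protocols. The authors deposited raw counts per gene for each library and 1 normalized table, a signal that equals those counts divided by 1 size factor per library when checked, from which the names of genes were taken. HTSeq 0.11.1, Trimmomatic 0.36-5, FastQC 0.11.7, SAMtools, HISAT2 and the build GRCh38 are listed in the submitters' processing notes. Counting was unstranded in union mode, per the names of the deposited files. Of the counted reads 45.0 to 50.6% lay in no gene and 7.09 to 8.55% were ambiguous; these lines were left out. Positions come from GENCODE 29 and promoter windows from RefSeq.

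Counts were tested with edgeR 4.0.16 (R 4.3.3): filterByExpr by group, TMM scaling, and a robust quasi-likelihood fit over all 16 libraries (22553 genes, common biological coefficient of variation 6.01%, 8 residual degrees of freedom). Each of 15 comparisons used the two-sided F test with Benjamini-Hochberg adjustment over all genes, which also gave each adjusted p printed without another tool's name. SE is the Wald error of the log2 change from the quasi-likelihood variance, not below Poisson error. The 95% intervals use the 8 residual degrees of freedom alone. The F test adds prior degrees of freedom shared over genes. An interval can therefore span no change where the unadjusted p is under 0.05. Alternatives were 3 other scalings, no low-count filter, a replicate block, only the groups of a contrast, leaving out each library and DESeq2 1.42.0. All 10 members are named; other pathway genes are the 2 per list with the smallest adjusted p for DHT in Vc and those asked for by small counts. Members and lists were chosen with earlier results of these data known.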

Additional observations from a re-analysis of the deposited data

Results flagged for a closer look

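For 3 results the effect of a treatment differed between Vc and Ver by edgeR's test of the difference itself. The DHT response of SAT1 was smaller in Ver, by a log2 difference of -0.50, with both libraries of each group on the same side. The effect of enzalutamide on top of DHT differed for AMD1, by -0.28, where the Vc libraries with both compounds were above and the Ver libraries below those with DHT alone. It also differed for SMS, by -0.31. The AMD1 and SMS calls were each lost when 1 of several libraries was left out, as given above. Lane code and line cannot be told apart in these levels, although each response is measured within 1 lane code.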

How the results depend on the processing

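The replicate numbers did not pair the samples: over 28 pairs of groups the deviations of same-numbered libraries correlated between -0.12 and 0.12, and 1 pair exceeded 0.1. With the replicate number as a block, every count of members called was as reported (8 for DHT in Vc, 9 in Ver; 4 and 8 for enzalutamide on top of DHT), and no printed call changed. Over all 10 genes, 15 comparisons and alternatives, 1764 values were recomputed: 64 calls were lost with the same sign and 12 gained, and 61 values changed sign, of which 1 was called in the fit as reported or under the alternative. Only values printed in the text were followed singly, a choice made after these counts were seen. Of the counts of members called, 1 moved by more than 1.5 times with another setting: enzalutamide on top of DHT in Ver, from 8 to 5 with library totals only. With 1 library left out, Ver against Vc with both compounds gave 3 calls each time (6 with all libraries), Ver against Vc with enzalutamide 3 to 4 (6) and the difference in the effect of enzalutamide on top of DHT 0 to 2 (2). Values that turned sign were AZIN1 with DHT in Ver (-0.038 with library totals only), PAOX with DHT in Ver (-0.115 to 0.624 with 1 library left out) and AZIN1 with both compounds in Ver (-0.08 to 0.048). Other pathway genes called for the difference in DHT response numbered 4 of 31 tested, against 2.32% of all tested genes. With DESeq2 they numbered 2, and the number also changed in some leave-one-out fits. Where a group was left with 1 library, that library was assumed to vary like the other groups. The causes of these changes were not tested. PAOX, at 17 to 50 counts per library, is the gene for which depth limits the precision most.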
